A study of Mus musculus with 14 samples.

Results

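A set of 10 DNA-binding factors and cofactors of red cell formation were followed across mouse spleens from models of psoriasis-like skin inflammation: Gata1, Klf1, Tal1, Nfe2, Gfi1b, Zfpm1, Ldb1, Lmo2, Bcl11a and Foxo3. They were chosen with earlier results of these data known, and taken from the table of read counts by gene symbol. All 10 were found among its 22116 named entries. The RNA came from whole spleens of 14 wild type female BALB/c mice, 6 to 8 weeks old. The 3 control mice received petrolatum, the vehicle, on dorsal skin and on the ears, although the design text of the series names them untreated. Imiquimod, which activates Toll-like receptor 7, was given as a 5% cream once a day over 5 days, to dorsal skin in 4 mice (imiquimod-dorsal) or to the ear in another 4 (imiquimod-ear). The remaining 3 mice (IL-23-ear) received mouse IL-23, the cytokine that maintains Th17 cells, by intradermal injection of 1 µg per ear, 4 times within 7 days. No mice injected with vehicle are among the libraries. A library is named here by its group and the replicate number in its label.

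These factors act together on the genes of the maturing red cell. Gata1 is the zinc finger factor without which red cell precursors die, and it works in a complex in which Tal1 and Gata1 bind DNA, Lmo2 bridges them and Ldb1 joins complexes on distant sites. Klf1 binds CACCC elements of the adult beta globin gene and of many other red cell genes, and Nfe2 binds the globin locus control region with a small Maf partner. In the mouse the spleen makes red cells throughout adult life and increases this output under stress.

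Imiquimod on the back raised 9 of the 10 factors in the spleen, and Ldb1 was the exception. In edgeR's quasi-likelihood test, 59.8% of the 15159 genes tested passed at an adjusted p under 0.05 in this comparison, 32.3% as higher and 27.6% as lower. The median log2 fold change was 2.98 over the 10 factors and -0.001 over all tested genes. The groups did not overlap for 9 factors, as for 61.1% of all tested genes, and for the same 9 every imiquimod-dorsal library lay above all 10 others, as for 20.4% of all tested genes. Imiquimod on the ear and IL-23 each left all 10 short of the threshold against control. All 10 passed the filter on low counts, and the lowest count of any of them in any library was 126, for Klf1 in IL-23-ear 3. Values are CPM, read counts scaled to a common library size by the TMM method, so a rise or fall is a change of share among the RNA measured. In RNA of a whole organ, more cells of a type and more RNA per cell cannot be told apart.

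Libraries held 28354674 to 40289411 counts over named genes. The 8 markers of maturing red cells, such as the anion exchanger Slc4a1, were all detected in each group. Their summed level ran from 424 to 453 CPM among the controls and from 6999 to 11630 CPM after imiquimod on the back. After treatment of the ear it ran from 244 to 2190 CPM with imiquimod and from 31.5 to 383 CPM with IL-23. Markers of other cells moved as well. The 10 cell division genes summed to 449.8 to 853 CPM in the control and 4306 to 5703 CPM in the imiquimod-dorsal libraries, and the 12 neutrophil markers to 122 to 186 and 1346 to 2371 CPM. The 10 T cell markers went the other way, from 1075 to 1566 CPM in the control to 242 to 313 CPM in the imiquimod-dorsal libraries. The part of these changes in cell makeup in the results on the factors was not tested. Imiquimod-dorsal 4 held 415.5 CPM of exocrine pancreas markers and control 5 held 46.6 CPM of adipose markers; without both libraries the same count of 9 factors passed.

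Gata1 lies on the X chromosome (ENSMUSG00000031162; GRCm39, 7825499 to 7844310, minus strand). It was at 13.8, 14.2 and 32.2 CPM in controls 2, 4 and 5 and at 218, 272, 244 and 220.3 CPM in imiquimod-dorsal 2, 3, 4 and 5. It was at 36.1, 15.1, 53.3 and 21.3 CPM in imiquimod-ear 1, 3, 4 and 5 and at 12.6, 21.6 and 9.21 CPM in IL-23-ear 1, 2 and 3. Every imiquimod-dorsal library stood above all 10 others, whose groups overlapped each other. The group means were 20.1 ± 10.5 CPM (SD, n = 3) for control and 238.5 ± 25.1 CPM (n = 4) for imiquimod-dorsal, and Gata1 rose with a log2 fold change of 3.57 ± 0.50 (SE; edgeR, adjusted p = 7.98e-05).

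Klf1 (ENSMUSG00000054191; chromosome 8, 85628557 to 85631934, plus strand) had the largest rise of the 10. Its levels were 10.3, 15.01 and 35.3 CPM in controls 2, 4 and 5 and 321, 461, 388 and 310.0 CPM in the imiquimod-dorsal libraries in the order above. They were 42.1, 12.0, 80.9 and 18.2 CPM in the imiquimod-ear and 11.7, 18.6 and 3.51 CPM in the IL-23-ear libraries. The imiquimod-dorsal libraries again stood apart, and the other groups overlapped, with a 6.72-fold spread among the imiquimod-ear mice. The log2 fold change was 4.19 ± 0.78, or 18.3-fold (edgeR, adjusted p = 0.000671), and it was 4.82 without control 5. Klf1 shares 814 exon bases with Gcdh, a gene of lysine breakdown on the opposite strand, and the libraries carry no strand. Gcdh itself went from 20.7 ± 1.13 CPM in the controls to 44.7 ± 2.50 CPM (log2 fold change 1.11 ± 0.09, edgeR, adjusted p = 9.3e-07), against a mean of 370.0 CPM for Klf1. The other factors except Nfe2 and Ldb1 share 55 to 353 exon bases with noncoding genes of the opposite strand, whose reads cannot be told apart from theirs.

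Tal1 (ENSMUSG00000028717; chromosome 4, 114913623 to 114928952, plus strand), a helix-loop-helix factor of blood formation, also rose. The controls were at 19.6, 25.0 and 41.5 CPM and the imiquimod-dorsal libraries at 373, 569, 442 and 395 CPM. The imiquimod-ear libraries were at 54.7, 19.2, 108.5 and 28.7 CPM and the IL-23-ear libraries at 14.5, 25.0 and 7.52 CPM. Imiquimod-ear 4 was the highest library outside the imiquimod-dorsal group, and IL-23-ear 3 the lowest of all 14. Tal1 rose by 3.95 ± 0.63 on the log2 scale with imiquimod on the back (edgeR, adjusted p = 0.000232).

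Nfe2 (ENSMUSG00000058794; chromosome 15, 103156526 to 103166830, minus strand), which is also needed to make platelets, was at 16.7, 13.4 and 18.5 CPM in the controls. The imiquimod-dorsal libraries were at 221, 285, 215 and 196 CPM. The other libraries were at 29.2, 12.1, 64.5 and 23.3 CPM with imiquimod on the ear and 9.00, 18.5 and 8.16 CPM with IL-23. No other group reached the imiquimod-dorsal range. The log2 fold change against control was 3.82 ± 0.53 (edgeR, adjusted p = 7.64e-05). Gata1, Nfe2, Gfi1b and Zfpm1 also serve the platelet lineage. The 12 megakaryocyte and platelet markers summed to 213 to 401 CPM in the control and 261 to 439.6 CPM in the imiquimod-dorsal libraries, so these groups overlapped, and 1 of the 12 passed as higher. Mast cells and basophils also use Gata1, Tal1 and Gfi1b. Their 10 markers summed to 20.6 to 36.7 CPM and 72.9 to 98.8 CPM in these groups. Among these markers 5 of the 10 passed as higher, and their part in the result was not tested. Both marker counts stand beside 32.3% of all tested genes called higher.

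**Figure D1:**
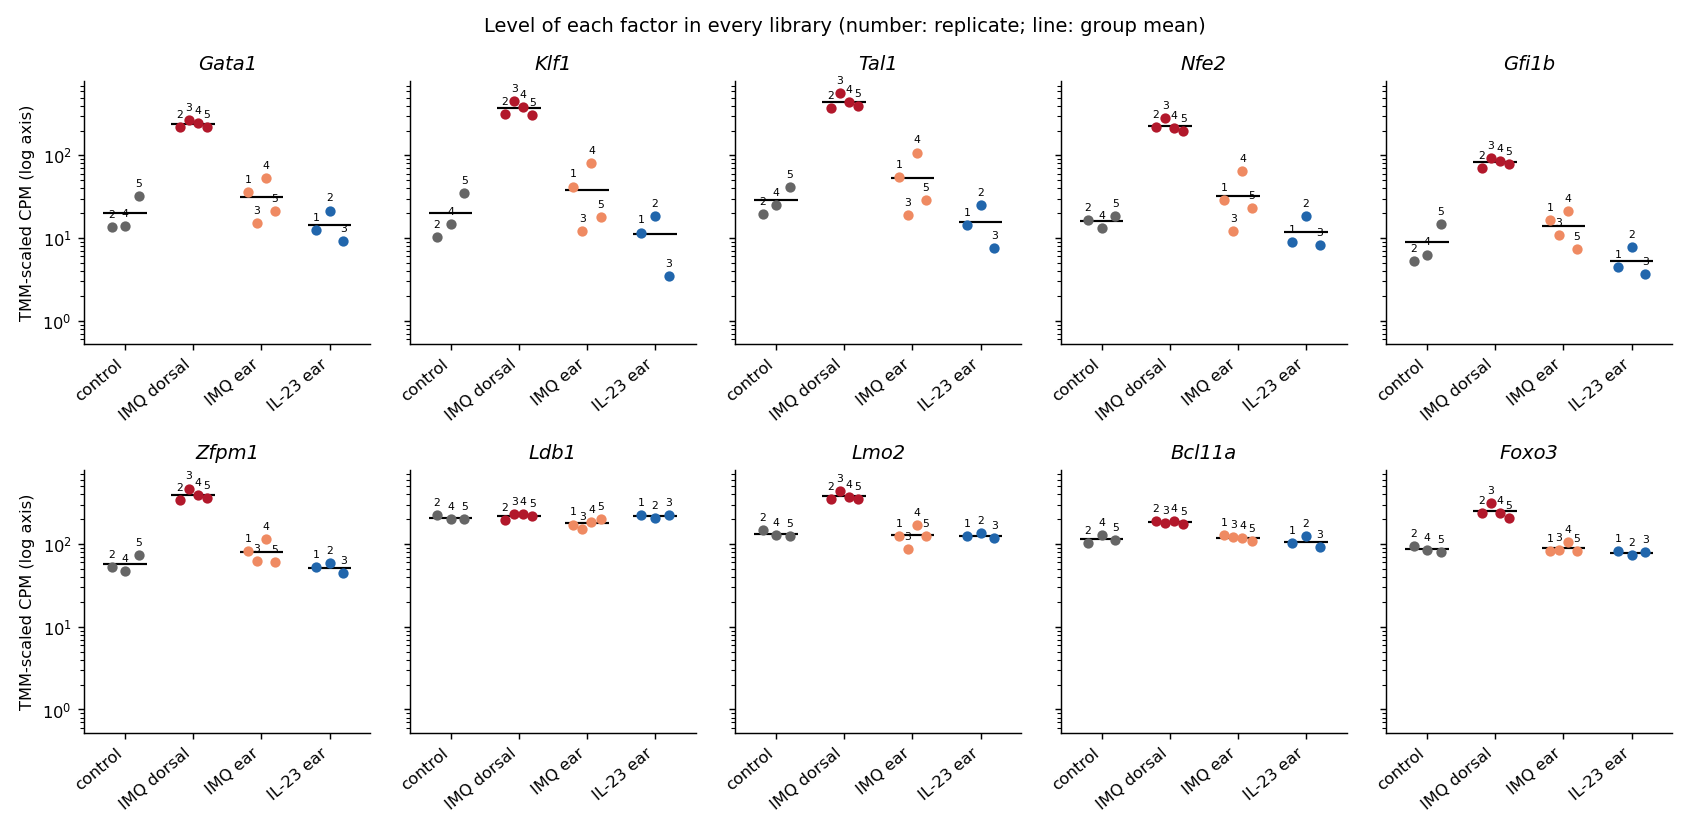
Level of each of the 10 factors in every library, in TMM-scaled CPM on a log axis; points are libraries numbered by replicate, lines are group means, and IMQ stands for imiquimod. The 4 imiquimod-dorsal libraries lie above all others for 9 factors, as they do for 20.4% of all tested genes, while for Ldb1 they lie between 193 and 233 CPM, among the controls at 202 to 223.5 CPM.

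The start regions of 4 of the strongly raised factors are shown because the group includes factors known to bind GATA and CACCC elements. They run from 250 bases before to 50 after the RefSeq start and come from RefSeq (table build GRCm38.p6), which matched 8 of the 10 genes with 11 promoters; the first of the Tal1 promoters is shown. Each was found once in GRCm39 by exact match; the reference strain is C57BL/6J, not BALB/c. Capitals mark matches, on either strand, to AGATAA, in which the first letter may also be T and the last also G (GATA factors), and to CCNCNCCC (KLF factors).
Gata1 (GRCm39 chrX:7834100-7834399, minus strand): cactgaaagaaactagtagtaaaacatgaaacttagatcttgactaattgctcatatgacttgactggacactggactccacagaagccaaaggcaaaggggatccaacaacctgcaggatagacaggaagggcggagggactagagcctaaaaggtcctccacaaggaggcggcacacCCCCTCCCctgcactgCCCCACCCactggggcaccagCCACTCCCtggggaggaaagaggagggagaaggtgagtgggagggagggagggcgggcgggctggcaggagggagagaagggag
Klf1 (GRCm39 chr8:85628361-85628660, plus strand): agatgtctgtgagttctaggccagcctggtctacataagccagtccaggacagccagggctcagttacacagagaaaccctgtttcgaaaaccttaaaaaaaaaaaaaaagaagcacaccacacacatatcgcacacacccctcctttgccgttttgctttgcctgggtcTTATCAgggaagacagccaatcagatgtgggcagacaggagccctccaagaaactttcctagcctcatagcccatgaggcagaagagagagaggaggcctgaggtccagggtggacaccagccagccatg
Tal1 (GRCm39 chr4:114913373-114913672, plus strand): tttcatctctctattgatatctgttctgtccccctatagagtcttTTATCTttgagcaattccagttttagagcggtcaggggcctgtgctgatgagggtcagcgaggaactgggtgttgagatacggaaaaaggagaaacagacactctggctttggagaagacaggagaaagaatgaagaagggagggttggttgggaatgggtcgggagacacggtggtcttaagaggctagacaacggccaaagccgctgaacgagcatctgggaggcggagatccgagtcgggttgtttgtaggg
Gfi1b (GRCm39 chr2:28511945-28512244, minus strand): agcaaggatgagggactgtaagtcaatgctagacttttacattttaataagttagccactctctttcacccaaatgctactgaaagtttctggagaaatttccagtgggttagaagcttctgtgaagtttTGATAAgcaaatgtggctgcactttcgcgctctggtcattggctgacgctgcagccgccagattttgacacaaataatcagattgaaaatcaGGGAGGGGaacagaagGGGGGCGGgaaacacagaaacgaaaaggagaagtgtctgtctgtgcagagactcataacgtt
The Gata1 window held 3 KLF matches and no GATA match, and the Klf1 and Tal1 windows each held 1 GATA match and no KLF match. The other Tal1 promoter, not shown, held 4 KLF matches and no GATA match. The Gfi1b window held 1 GATA match and 2 KLF matches. A GATA match was in 4 of the 11 promoters (36.4%; Klf1, Tal1, Gfi1b and Ldb1), against 29.8% of all 32851 promoters of the table. A KLF match was in 9 of 11 (81.8%) against 49.5%, an E box (CANNTG, the element of Tal1 and its partners) in 6 of 11 (54.5%) against 72.3%, and AATCNNNGC, of Gfi1b, in 2 of 11 (18.2%) against 10.3%. TGAGTCA, of Nfe2, was in 0 of 11 against 5.2%. The KLF letters are rich in C and G. Among windows with a KLF match the GC content was 57.3% for Gata1, 64.3% for the other Tal1 promoter and 44.3% for Gfi1b. It was 73.7% for Zfpm1, 63.0% for Bcl11a and 75.0% for Foxo3. The promoters of Ldb1, which did not pass as higher, all held a KLF match, at 71.3%, 67.3% and 51.0%. The windows without one, of Klf1 and the first Tal1 promoter, were at 51.3% and 50.7%. Over all promoters the median was 52.7% and the third quartile 61.7%. These are letter matches and not binding data.

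Among the cofactors, Zfpm1 and Lmo2 rose and Ldb1 did not pass. Zfpm1 (ENSMUSG00000049577; chromosome 8, 123008805 to 123065024, plus strand) encodes the friend-of-GATA partner that Gata1 needs at most of its sites. It was at 52.9, 47.0 and 74.8 CPM in the controls, 342, 471, 396 and 357 CPM in the imiquimod-dorsal, 83.1, 62.5, 117 and 61.1 CPM in the imiquimod-ear and 52.2, 59.8 and 44.3 CPM in the IL-23-ear libraries. The rise with imiquimod on the back was 2.75 ± 0.25 on the log2 scale, 6.72-fold (edgeR, adjusted p = 2.5e-06), with no overlap between the groups.

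Lmo2 (ENSMUSG00000032698; chromosome 2, 103788331 to 103812355, plus strand), the bridging LIM protein, started from a higher level. It was at 149, 128 and 126.5 CPM in the controls, and 349.7, 445, 373 and 355 CPM in the imiquimod-dorsal libraries. It was at 125, 87.0, 171 and 127 CPM in the imiquimod-ear and 124, 136 and 119 CPM in the IL-23-ear libraries, so imiquimod-ear 3 was its lowest library. Lmo2 rose 2.83-fold (log2 fold change 1.50 ± 0.18, edgeR, adjusted p = 1.07e-05).

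Ldb1 (ENSMUSG00000025223; chromosome 19, 46019964 to 46033981, minus strand), the self-joining cofactor that links enhancers to promoters, was nearly level across the groups. It was at 223.5, 202 and 203 CPM in the controls and 193, 233, 230.0 and 217 CPM in the imiquimod-dorsal libraries, which overlapped. It was at 173, 153.5, 187 and 201 CPM in the imiquimod-ear and 223, 209.5 and 224 CPM in the IL-23-ear libraries, and all 4 imiquimod-ear values were below every control. The log2 fold change with imiquimod on the back was 0.06 ± 0.09 (edgeR, adjusted p = 0.598) and turned to -0.17 under upper-quartile scaling, which moved the median of all genes by about as much, to -0.23. Ldb1 shares 177 exon bases with Pprc1 on the opposite strand, which was at 77.8 ± 11.1 CPM in the controls and 91.7 ± 5.54 CPM in the imiquimod-dorsal libraries.

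The repressors Gfi1b and Bcl11a both rose. Gfi1b (ENSMUSG00000026815; chromosome 2, 28499462 to 28511994, minus strand), which silences genes through the demethylase Kdm1a and Rcor1, was at 5.33, 6.34 and 15.0 CPM in the controls. It was at 70.6, 93.3, 85.6 and 79.2 CPM in the imiquimod-dorsal, 16.4, 10.9, 21.5 and 7.34 CPM in the imiquimod-ear and 4.46, 7.76 and 3.65 CPM in the IL-23-ear libraries. Its rise of 3.21 ± 0.45 on the log2 scale separated the imiquimod-dorsal mice from all others (edgeR, adjusted p = 7.19e-05).

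Bcl11a (ENSMUSG00000000861; chromosome 11, 24027941 to 24124123, plus strand), the repressor of embryonic globin genes, is also a factor of B cells and plasmacytoid dendritic cells. It was at 104, 128 and 113 CPM in the controls and 189.7, 178, 191 and 174 CPM in the imiquimod-dorsal libraries. It was at 128, 121.5, 119 and 108 CPM in the imiquimod-ear and 103, 125 and 92.9 CPM in the IL-23-ear libraries. All imiquimod-dorsal values exceeded all others, by a small margin beside those of the factors above. The rise was 1.59-fold (log2 fold change 0.67 ± 0.10, edgeR, adjusted p = 6.8e-05). In the same libraries the 10 B cell markers summed to 4479 to 4687 CPM in the control and 3334 to 4015 CPM in the imiquimod-dorsal group, and the 8 plasmacytoid dendritic cell markers to 684.5 to 809.8 and 427 to 565 CPM. Of the B cell markers 3 of 10 passed as lower and of the plasmacytoid dendritic cell markers 6 of 8, beside 27.6% of all tested genes. The part of either cell type in the result was not tested.

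Foxo3 (ENSMUSG00000048756; chromosome 10, 42057837 to 42154007, minus strand), a forkhead factor that guards red cell precursors against oxidants and is active in many tissues, was at 94.8, 86.0 and 81.2 CPM in the controls. The imiquimod-dorsal libraries were at 239, 315, 238 and 206 CPM. The imiquimod-ear libraries were at 83.4, 84.1, 105.5 and 82.4 CPM and the IL-23-ear libraries at 82.8, 74.7 and 80.2 CPM, both close to the controls. Foxo3 rose 2.85-fold with imiquimod on the back (log2 fold change 1.51 ± 0.13, edgeR, adjusted p = 1.34e-06).

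**Figure D2:**
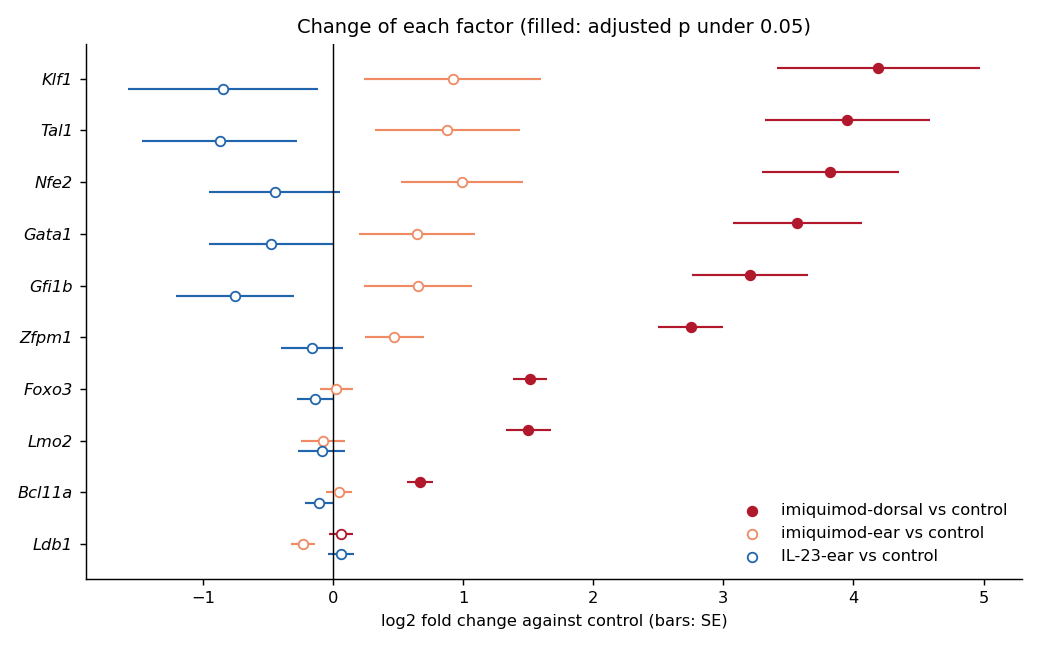
Log2 fold change of each factor against control in the 3 treated groups, with SE; filled points passed at an adjusted p under 0.05 in edgeR's test over all genes. With imiquimod on the back 9 points are filled, from 0.67 for Bcl11a to 4.19 for Klf1, and all points of the other groups are open.

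Levels can be compared between genes only per length, so they were also expressed as CPM per kilobase of exon. In the controls Lmo2 (57.6 ± 5.42) and Ldb1 (41.4 ± 2.38) were the most abundant factors per kilobase, and neither overlapped its neighbour in the order. The other 8 lay between 4.86 for Gfi1b and 13.1 for Klf1, each overlapping the next. With imiquimod on the back Klf1 led at 239.6 ± 45.3 CPM per kilobase, ahead of Lmo2 at 163 ± 18.9 and Gata1 at 96.1 ± 10.1, and the ranges of these first 2 did not overlap. Gata1, Tal1 (86.9 ± 17.2), Zfpm1 (81.8 ± 12.0) and Nfe2 (70.1 ± 11.8) followed with overlapping ranges. Gfi1b (44.9 ± 5.27) and Ldb1 (43.1 ± 3.57) overlapped, and Foxo3 (27.0 ± 5.01) and Bcl11a (13.7 ± 0.64) came last without overlap. With imiquimod on the ear Lmo2 led at 54.6 ± 14.7 CPM per kilobase, and every factor overlapped the next. With IL-23 Lmo2 (54.3 ± 3.73), Ldb1 (43.2 ± 1.57) and Zfpm1 (10.9 ± 1.62) led without overlap, and Klf1 had the sixth place at 7.30 ± 4.90.

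The 6 factors with the largest rises, Gata1, Klf1, Tal1, Nfe2, Gfi1b and Zfpm1, a set made after their values were seen, had their highest levels in the same mice. Within their groups, IL-23-ear 2, imiquimod-ear 4, control 5 and imiquimod-dorsal 3 had the highest level of all 6. All 6 were lowest in IL-23-ear 3. The summed red cell markers were highest in the same 4 libraries, at 383, 2190, 453 and 11630 CPM, and lowest among the IL-23-ear libraries in IL-23-ear 3, at 31.5 CPM. Among the controls these sums hardly differed, at 427, 424 and 453 CPM in controls 2, 4 and 5. Klf1 ran from 10.3 to 35.3 CPM and Gata1 from 13.8 to 32.2 CPM in the same controls.

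Known targets of these factors rose with them when imiquimod was on the back. Of 39 erythroid targets 38 rose and 0 fell, beside 32.3% of all tested genes called higher and 27.6% called lower. Their median log2 fold change was 3.27. The list holds alpha and beta globin genes with near-identical copies, whose split of reads is uncertain. Cdkn2c, an inhibitor of the cell cycle, rose by 2.88 ± 0.20 on the log2 scale, the surface protein gene Gypc by 2.70 ± 0.27 and the heme-binding protein gene Hebp1 by 1.63 ± 0.17 (edgeR, adjusted p = 5.62e-07, 5.02e-06 and 5.65e-06). Epor, the erythropoietin receptor, a target singled out after its values were seen, was at 16.7 ± 9.06 CPM in the control and 153 ± 29.6 CPM in the imiquimod-dorsal group (log2 fold change 3.20 ± 0.53, edgeR, adjusted p = 0.000283). Cd36, a scavenger receptor that macrophages, platelets and B cells also carry, was the target that did not pass, at -0.01 ± 0.12 (edgeR, adjusted p = 0.947).

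Most cofactors and DNA-binding partners of the factors rose as well. Of 28, 17 rose, 2 fell and 9 did not pass, beside 32.3% of all tested genes called higher and 27.6% called lower. Their median log2 fold change was 0.37, and 4 fell without control 2 and 1 without imiquimod-dorsal 2 or 5. Ssbp3, which stabilises Ldb1, rose by 1.51 ± 0.12 on the log2 scale, the small Maf partner gene Mafg by 1.10 ± 0.11 and Mbd2, of a repressive methyl-DNA-binding complex, by 0.72 ± 0.07 (edgeR, adjusted p = 9.7e-07, 2.34e-06 and 2.74e-06). Sox6, which works with Bcl11a in repressing embryonic globin, was singled out after its value was seen: its means were 7.46 ± 1.26 and 144 ± 33.3 CPM, with a log2 fold change of 4.27 ± 0.65 (edgeR, adjusted p = 0.000164).

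Other regulators of red cell formation went both ways. Of 27 tested, 12 rose, 8 fell and 7 did not pass, beside 32.3% of all tested genes called higher and 27.6% called lower. Their median log2 fold change was 0.20, and 5 fell without control 2 or imiquimod-dorsal 5. E2f2, a cell cycle factor needed for the last divisions of red cell precursors, had means of 52.8 ± 3.92 and 497 ± 71.3 CPM, with a log2 fold change of 3.24 ± 0.24 (edgeR, adjusted p = 8.32e-07). E2f4 rose by 1.63 ± 0.15 and the histone methyltransferase gene Kmt5a, which acts in chromatin condensation, by 1.61 ± 0.15 (edgeR, adjusted p = 1.93e-06 and 1.6e-06). Lin28b had too few counts to test.

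Factors of earlier stages and of opposing lineages went both ways. Of 18, 4 rose, 6 fell and 8 did not pass, beside 32.3% of all tested genes called higher and 27.6% called lower. Their median log2 fold change was -0.21. With 1 library left out 2 (without control 4 or 5) to 4 rose and 5 to 10 (without IL-23-ear 2) fell. Ets1, a lymphoid factor, changed by -0.90 ± 0.12 and Cebpb, of the myeloid lineage, by 0.61 ± 0.12 (edgeR, adjusted p = 2.21e-05 and 0.000513). Gata2, which precedes Gata1 in progenitors, was at 8.31 ± 1.34 CPM in the control and 9.98 ± 1.52 CPM in the imiquimod-dorsal group (log2 fold change 0.27 ± 0.17, edgeR, adjusted p = 0.184). Myb, of proliferating progenitors, rose by 0.69 ± 0.14 (edgeR, adjusted p = 0.00084). Spi1, the myeloid and B cell factor that opposes Gata1, was higher by 0.29 ± 0.11 (edgeR, adjusted p = 0.0317), a call lost in 14 of 23 alternatives, among them each fit without 1 control library (adjusted p = 0.102, 0.178 and 0.121; 0.0142 to 0.673 over all). Fli1, a platelet factor that opposes Klf1, was at -0.22 ± 0.10 (edgeR, adjusted p = 0.0788) and passed as lower in 13 of 23 alternatives, among them the fit without control 5 (adjusted p = 0.0142; 0.00242 to 0.181 over all).

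Genes that Foxo3 is known to drive were split. Of 27, 12 rose, 10 fell and 5 did not pass, beside 32.3% of all tested genes called higher and 27.6% called lower. Their median log2 fold change was 0.09. The autophagy gene Atg4b rose by 1.35 ± 0.11 and the mitochondrial superoxide dismutase gene Sod2 by 0.86 ± 0.07, whereas Trib2, a pseudokinase gene active in lymphocytes, fell by 1.68 ± 0.16 on the log2 scale (edgeR, adjusted p = 9.03e-07, 1.11e-06 and 1.96e-06). The antioxidant genes Prdx2 and Gpx1, singled out after their values were seen, rose by 3.28 ± 0.36 and 2.25 ± 0.24 (edgeR, adjusted p = 1.17e-05 and 7.57e-06); both are abundant in red cells.

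**Figure D3:**
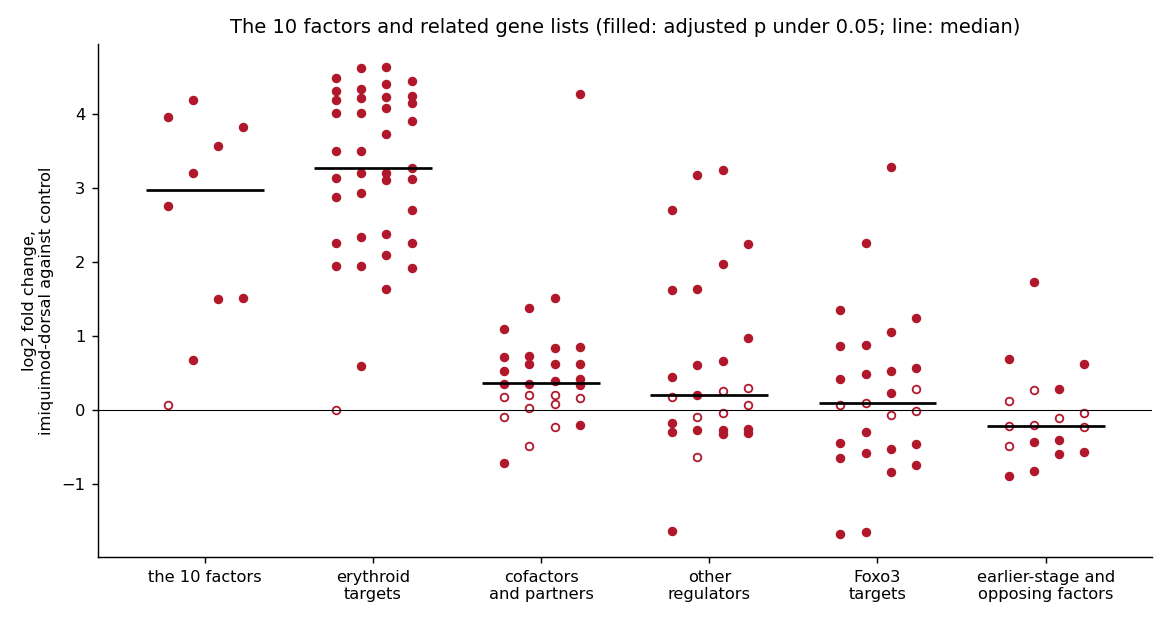
Log2 fold change with imiquimod on the back for the 10 factors and the genes of the 5 related lists, 1 point per gene, filled where the adjusted p was under 0.05, with the median as a line. The medians are 2.98 for the factors and 3.27 for their targets, and from -0.21 to 0.37 for the other lists.

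Imiquimod on the ear changed none of the factors past the threshold. Of the 10 factors 0 passed against control in edgeR's test, and 1, Ldb1, was under an unadjusted p of 0.05. The share of all tested genes at that unadjusted threshold is not given here. DESeq2 called 1 factor (Ldb1, lower) and limma-voom 0, beside 3974 and 3216 of 15159 genes. Over all genes 21.2% passed, 14.3% as higher and 6.98% as lower, and the number of called genes, 3219, went from 1066 without control 4 to 4977 without imiquimod-ear 5. The median log2 fold change of the factors was 0.56, beside 0.02 over all genes. Nfe2 was at 0.99 ± 0.47 (edgeR, adjusted p = 0.157), Klf1 at 0.92 ± 0.68, Tal1 at 0.88 ± 0.56, Gfi1b at 0.65 ± 0.41, Gata1 at 0.65 ± 0.44 and Zfpm1 at 0.47 ± 0.23. Klf1 was at 1.57 without control 5 and at 0.25 without imiquimod-ear 4, and Tal1 was at 0.25 without imiquimod-ear 4. Gfi1b passed without control 5, at 1.23 (edgeR, adjusted p = 0.0477), with adjusted p up to 0.647 in the other alternatives. Foxo3 (0.03 ± 0.13), Bcl11a (0.05 ± 0.10) and Lmo2 (-0.08 ± 0.17) lay near 0, and their sign changed among the alternatives. Ldb1 was at -0.23 ± 0.09 (edgeR, adjusted p = 0.0849) and passed as lower under upper-quartile scaling, in DESeq2 and without imiquimod-ear 5 (adjusted p = 0.0472, 0.043 and 0.011), with adjusted p up to 0.253 in the other alternatives.

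The cell division markers, with sums of 905 to 2443 CPM, were all 10 called higher with imiquimod on the ear, and of the 12 neutrophil markers 7 were. Imiquimod-ear 3 had the highest sum of cell division markers of its group, 2443 CPM, but the lowest sum of red cell markers, 244 CPM, and the lowest Gata1, Klf1, Tal1 and Nfe2. Of 39 targets 2 passed, Cdkn2c at 1.11 ± 0.18 and Cd36 at 0.37 ± 0.12 (edgeR, adjusted p = 0.00296 and 0.046); the Cd36 call was lost in 15 of 23 alternatives. Of 28 cofactors 4 rose and 0 fell, and with 1 library left out 0 to 6 rose and 0 to 2 fell. Without control 2 or 4 or imiquimod-ear 1 or 3, 0 rose. The 2 of 39 targets and 4 of 28 cofactors stand beside the 14.3% of all genes called higher. The demethylase gene Kdm1a and the deacetylase gene Hdac2, both of repressor complexes that Gfi1b recruits, rose by 0.27 ± 0.07 and 0.23 ± 0.07 (edgeR, adjusted p = 0.0169 and 0.0302). Those calls were lost in 9 and 12 of 23 alternatives.

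With imiquimod on the ear 14.3% of all tested genes were called higher and 6.98% lower, beside the counts of each list here. Of the 27 other regulators 5 rose and 3 fell. With 1 library left out 2 (without control 4) to 6 rose and 1 (without control 2) to 5 (without imiquimod-ear 5) fell. Arid3a, a factor of B cells and of red cell precursors, rose by 1.29 ± 0.18 and Foxm1, of dividing cells, by 1.31 ± 0.26 (edgeR, adjusted p = 0.00152 and 0.00568); with the replicate block Foxm1 did not pass (adjusted p = 0.0622, the highest over the alternatives, with 4.74e-06 the lowest). Of the 18 earlier-stage and opposing factors 1 rose and 2 fell: Gfi1, the relative of Gfi1b in granulocytes and lymphocytes, was at 0.41 ± 0.12 and Ets1 at -0.46 ± 0.12 (edgeR, adjusted p = 0.0248 and 0.0148), calls lost in 9 and 4 of 23 alternatives. With 1 library left out 0 to 1 of these rose and 0 (without control 2 or 4) to 6 (without imiquimod-ear 5) fell. Of the 27 Foxo3 targets 2 rose and 3 fell, among them Ccng2, a cyclin G gene, at 0.53 ± 0.09 and Trib2 at -0.54 ± 0.15 (edgeR, adjusted p = 0.00294 and 0.025), the Trib2 call being lost in 7 alternatives. With 1 library left out 1 to 4 of the Foxo3 targets rose and 0 to 5 fell, the highest counts being those without imiquimod-ear 5. None fell without control 2 or 4 or imiquimod-ear 1 or 3.

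IL-23 in the ear gave no call for the factors against control. Of the 10, 0 passed in edgeR's test and 0 were under an unadjusted p of 0.05, and DESeq2 and limma-voom called 0. Over all genes 0.0528% passed, 8 genes, 0.0462% as higher and 0.00660% as lower, and this number ran from 0 to 12 when 1 library was left out. The median log2 fold change of the factors was -0.30, beside 0.01 over all genes. Tal1 was at -0.87 ± 0.60 (edgeR, adjusted p = 0.751), Klf1 at -0.84 ± 0.73, Gfi1b at -0.75 ± 0.45, Gata1 at -0.48 ± 0.48, Nfe2 at -0.45 ± 0.50 and Zfpm1 at -0.16 ± 0.24. Without control 5 the values of Gata1 and Zfpm1 were 0.04 and 0.05, that of Klf1 was -0.18 and that of Gfi1b -0.15. Foxo3 (-0.14 ± 0.14), Bcl11a (-0.11 ± 0.11), Lmo2 (-0.09 ± 0.18) and Ldb1 (0.06 ± 0.10) were closer to 0. In edgeR's test, DESeq2 and limma-voom alike 0 genes of the target, cofactor, other regulator, earlier-stage and Foxo3 target lists were called. In edgeR's test 0 of 39 targets, 1 of 28 cofactors, 3 of 27 other regulators, 1 of 18 earlier-stage factors and 1 of 27 Foxo3 targets were under an unadjusted p of 0.05. The share of all tested genes at this unadjusted threshold is not given here, and 0.0528% is the adjusted share. These counts are therefore not read as a result on the lists.

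The imiquimod groups, treated on ear or back, were compared directly. Treated area and amount of cream may differ between ear and back and were not part of the fit, so site and dose cannot be told apart. All 10 factors were lower with imiquimod on the ear than on the back, beside 47.7% of all genes that passed in this comparison, 24.5% as lower and 23.3% as higher. The median log2 difference, ear minus dorsal, was -2.41 over the factors and 0.03 over all genes, and for 9 of the 10 the groups did not overlap, as for 42.9% of all tested genes. Klf1 differed by -3.27 ± 0.66 (edgeR, adjusted p = 0.00179) and by -3.94 without imiquimod-ear 4. Tal1 differed by -3.07 ± 0.54 (adjusted p = 0.00072) and by -3.70 without that library. Gata1 differed by -2.92 ± 0.43, Nfe2 by -2.83 ± 0.45, Gfi1b by -2.55 ± 0.39 and Zfpm1 by -2.28 ± 0.22 (edgeR, adjusted p from 7.4e-06 to 0.000348). Lmo2 differed by -1.58 ± 0.16, Foxo3 by -1.49 ± 0.12 and Bcl11a by -0.62 ± 0.09 (edgeR, adjusted p = 7.57e-06, 1.84e-06 and 0.000115). Ldb1 differed by -0.29 ± 0.08 (edgeR, adjusted p = 0.0119), with overlapping groups. Pprc1, which overlaps it on the other strand, differed by -0.29 ± 0.10 as well (edgeR, adjusted p = 0.0224). The Ldb1 call was lost in 5 of 23 alternatives, among them the fits without imiquimod-ear 1 and without imiquimod-ear 3 (-0.25 and -0.20, adjusted p = 0.0504 and 0.0512), and over all alternatives the adjusted p ran from 0.00491 to 0.258.

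The ear models were compared with each other, since they share the treated site. Against imiquimod-ear, IL-23-ear had Gfi1b lower, by -1.41 ± 0.43, and Ldb1 higher, by 0.29 ± 0.09 (edgeR, adjusted p = 0.0433 and 0.0411), and these comparisons share libraries with those above. The other 8 factors did not pass. Over all genes 17.3% passed, 10.2% as lower and 7.06% as higher, and the number, 2623, ran from 1101 without IL-23-ear 3 to 4463 without imiquimod-ear 5. The Gfi1b call was lost in 14 and the Ldb1 call in 11 of 23 alternatives. Both were lost without imiquimod-ear 1, 3 or 4, without IL-23-ear 1 or 3 and without imiquimod-dorsal 4 or 5 (adjusted p from 0.0547 to 0.16 for Gfi1b and from 0.0513 to 0.117 for Ldb1). Both were also lost with the replicate block (adjusted p = 0.149 and 0.0975). Over the alternatives the adjusted p ran from 0.0138 to 0.16 for Gfi1b and from 0.00619 to 0.117 for Ldb1. The number of factors called was 6 in DESeq2, 1 in limma-voom, and 4 without imiquimod-ear 5. Over all genes these fits called 3530 of 15159, 2529 of 15159 and 4463 of 15113. Klf1 was at -1.76 ± 0.71, Tal1 at -1.75 ± 0.58, Nfe2 at -1.44 ± 0.48, Gata1 at -1.12 ± 0.45 and Zfpm1 at -0.63 ± 0.23 (edgeR, adjusted p from 0.0584 for Tal1 to 0.109 for Gata1). Without imiquimod-ear 4 the values of Klf1 and Tal1 were -1.10 and -1.13. In this comparison all 10 cell division markers were lower, with sums of 441 to 632 CPM against 905 to 2443 CPM, and 8 of 10 T cell markers were higher, with sums of 1492 to 1774 CPM against 768.5 to 1327 CPM; their part in the results was not tested.

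Between IL-23-ear and imiquimod-dorsal, 9 factors were lower with IL-23 and Ldb1 did not pass, beside 57.1% of all genes called, 30.0% as lower and 27.1% as higher. The groups did not overlap for the same 9, as for 60.7% of all genes. The median log2 difference of the factors was -3.43. Klf1 differed by -5.04 ± 0.82, or 32.8-fold, and Bcl11a by -0.78 ± 0.10, the largest and smallest called differences (edgeR, adjusted p = 0.00026 and 1.96e-05). Ldb1 was at 219 ± 7.95 CPM (n = 3) and 218 ± 18.1 CPM (n = 4), a log2 difference of 0.00 ± 0.09 (edgeR, adjusted p = 0.987).

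Ratios of factors that oppose or precede each other, and of Gata1 to its partner Ldb1, were taken within each library, as log2 of CPM + 0.5. Their absolute size depends on gene length, so only groups are compared. The Gata1 to Gata2 ratio was 0.97, 0.67 and 1.73 in controls 2, 4 and 5 and 4.56, 4.43, 4.68 and 4.40 in the imiquimod-dorsal libraries. It was 2.39, 1.39, 3.09 and 1.34 in the imiquimod-ear and 0.80, 1.41 and 0.21 in the IL-23-ear libraries. The imiquimod-dorsal mice stood apart from all other groups, which overlapped each other. The same was true of the ratios Gata1 to Spi1, Klf1 to Fli1 and Gata1 to Ldb1, with differences between imiquimod-dorsal and control of 3.37, 4.54 and 3.59, beside 3.40 for Gata1 to Gata2. For each ratio the exact two-sided permutation test of imiquimod-dorsal against control gave p = 0.0571, the smallest that 4 against 3 mice can give, and against imiquimod-ear p = 0.0286, the smallest that 4 against 4 can give. After adjustment over the 24 tests of this kind these were 0.114, so none of the ratio differences passed. With groups of these sizes none could have passed after adjustment, whatever the values, so the tests cannot decide on the ratios.

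**Figure D4:**
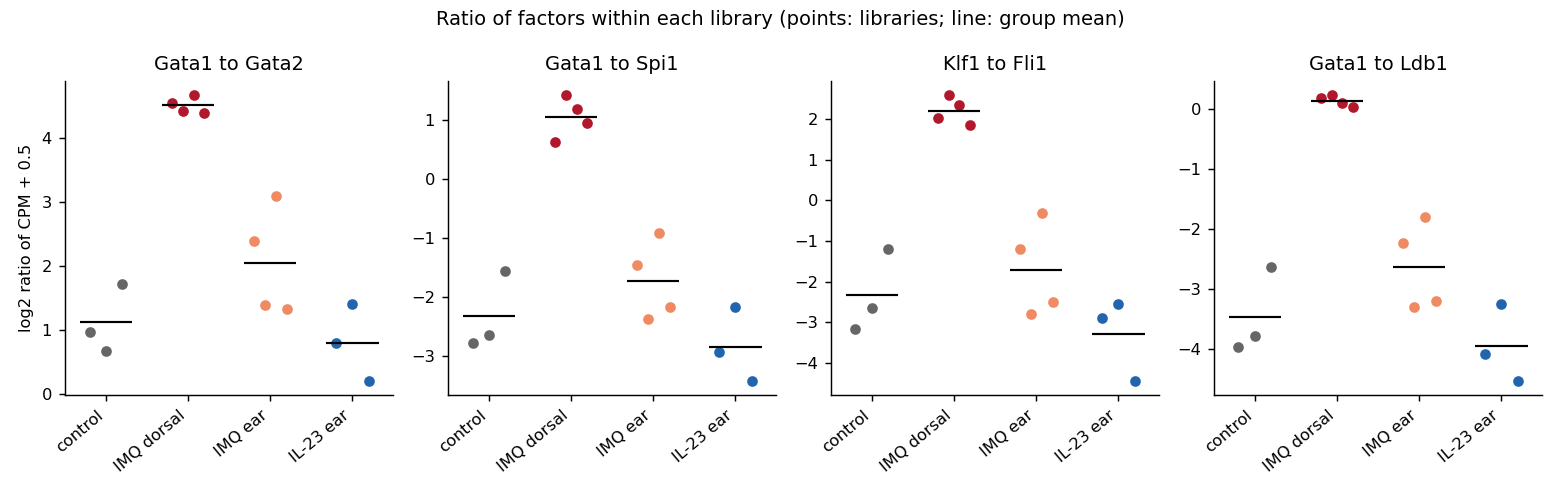
Log2 ratio of CPM + 0.5 of pairs of factors within each library, by group; points are libraries, lines group means, and the vertical axes differ between panels. In each panel the 4 imiquimod-dorsal libraries lie above all others, for Gata1 to Ldb1 between 0.02 and 0.22 with all others at or below -1.80.

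The genes whose pattern over the 14 libraries was most like that of a factor were found by the root mean square difference of centred log2 CPM, among 12318 genes. Libraries of 4 groups share treatment and depth, so this is a description. Nearest to Gata1 were Steap3 (0.13), Cracd (0.20), Ces2g (0.20), Pheta2 (0.20) and Mboat2 (0.21). Nearest to Klf1 were Add2 (0.16), Rhag (0.19), Slc38a5 (0.21), Rhd (0.24) and Car2 (0.24), and Tal1 held rank 6 at 0.25. Nearest to Bcl11a were Npat (0.09), Rev1 (0.09), Ash2l (0.10), Clic4 (0.10) and Ppp3cb (0.11). Among the factors themselves Nfe2 was nearest to Gata1, at rank 20 (0.28), while Ldb1, at 0.35, was the nearest to Bcl11a, at rank 4889.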

How the data were processed

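The data are deposited raw read counts, 1 whole number per gene and library. Per the labels' protocols, poly(A) RNA was sequenced from both ends with reads of 150 bases from non-stranded libraries. Per the submitters' processing notes, the tools included DESeq2 1.38.3, featureCounts 2.0.3 (Subread), HISAT2 2.2.1, fastp 0.23.2 and StringTie 2.2.1, with build GRCm39, whose roles and settings the notes do not state. Among 22740 entries, 624 loci without a gene name (0.484% to 0.674% of each library's counts) were left out.

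Genes were tested with edgeR 4.0.16 (R 4.3.3): robust quasi-likelihood F test, TMM scaling, filterByExpr with a minimum count of 10, all 14 libraries in 1 fit (10 residual degrees of freedom, biological coefficient of variation 18.7%), and Benjamini-Hochberg adjustment over 15159 genes with a threshold of 0.05, in 6 comparisons. Log2 fold changes carry their SE, worked out as the absolute log2 fold change over the square root of edgeR's F, and CPM their SD. P-values of ratios come from exact permutation tests (SciPy 1.17.1). The 18 replicate pairs differed by more than sampling noise (chi-square per degree of freedom 23.6 to 138), so each counts as 1 sample. The design text calls the samples biological replicates and names no batch. Floors cover counting error only, and 3 counts equal 0.0745 to 0.106 CPM. The SD and SE values also hold the spread between mice. The scripts were tested on simulated data.

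Alternatives were RLE and upper-quartile scaling, haemoglobin and immunoglobulin genes out of the scaling, no filter, DESeq2 1.42.0, limma-voom (limma 3.58.1), the replicate number as a block, fits on the groups compared, another ratio offset (CPM + 2) and each library left out; leaving out control 5 and imiquimod-dorsal 4 together was chosen after seeing the data. The factors and gene lists were chosen with earlier results of these data known. Besides the 10 factors, Gata2, Spi1, Fli1 and Myb, the named genes are the 3 of each list with the smallest adjusted p with imiquimod on the back and up to 2 in each ear model; the 5 genes nearest to Gata1, Klf1 and Bcl11a needed a mean log2 CPM of at least 1. Coordinates are from GENCODE mouse release M39.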

Additional observations from a re-analysis of the deposited data

Results flagged for a closer look

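The level of all 10 factors differed between the imiquimod groups in the direct test of ear against back. Site and dose cannot be told apart in this test. The log2 difference, ear minus dorsal, was -2.92 for Gata1, -3.27 for Klf1, -3.07 for Tal1, -2.83 for Nfe2, -2.55 for Gfi1b, -2.28 for Zfpm1, -0.29 for Ldb1, -1.58 for Lmo2, -0.62 for Bcl11a and -1.49 for Foxo3 (edgeR, adjusted p from 1.84e-06 to 0.0119). It also passed for the 4 comparison factors, at -0.63 for Gata2, -0.29 for Spi1, 0.31 for Fli1 and -0.48 for Myb (edgeR, adjusted p = 0.00443, 0.0234, 0.0164 and 0.00772). The Ldb1 call, with overlapping groups, was lost in 5 of 23 alternatives (adjusted p from 0.00491 to 0.258 over all). The Spi1 call was also lost in 5 of 23. Among them were the fits without imiquimod-dorsal 2 and without imiquimod-ear 3 (adjusted p = 0.0754 and 0.0837, from 0.0118 to 0.273 over all). All these tests share the same imiquimod-dorsal libraries.

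Single libraries stood far from the rest of their group in 2 of the 28 groups of 4 libraries checked for 14 genes; chance flags about 1 in 20. Foxo3 was at 105.5 CPM in imiquimod-ear 4, the library with the highest Gata1, Klf1 and Tal1 of its group, against 82.4 to 84.1 CPM in the other 3. Spi1 was at 79.95 CPM, or 80.0, in imiquimod-ear 3.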

How the results depend on the processing

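The factors called against control kept their number in all 23 alternatives with imiquimod on the back (9) and with IL-23 (0), as did those of IL-23-ear against imiquimod-dorsal (9), and ear against back had 9 or 10. With imiquimod on the ear 1 factor was called under upper-quartile scaling and in DESeq2, and 0 to 1 with 1 library left out. IL-23-ear against imiquimod-ear called 1 without the filter, in limma-voom and without both control 5 and imiquimod-dorsal 4, 6 in DESeq2, 0 with the replicate block and in the fit on the groups compared, and 0 to 4 with 1 library left out. Over all genes, imiquimod-ear against control had 311 calls with the replicate block, 1126 in the fit on the groups compared and 1066 to 4977 with 1 library left out. IL-23-ear against control had 0 with RLE or upper-quartile scaling, without the filter, with the block and in the fit on the groups compared, 132 in DESeq2, 15 in limma-voom, 1 without both libraries and 0 to 12 with 1 left out. IL-23-ear against imiquimod-ear had 3530 in DESeq2, 2529 in limma-voom, 1261 with the block, 1247 in the fit on the groups compared and 1101 to 4463 with 1 left out. Same-numbered libraries did not deviate together (correlation -0.37 to 0.24 over 13 pairs, -0.29 to 0.28 over other pairs), so the numbers are not taken as pairs. Upper-quartile scaling moved the median log2 fold change of all genes to -0.23 (dorsal against control), 0.18 (ear against dorsal) and 0.20 (IL-23 against dorsal), and the share of calls that were higher from 53.9% to 34.7%, 48.7% to 68.0% and 47.5% to 64.3%; for ear against control it went from 67.1% to 52.4%. Most of the values that changed sign were near 0. Foxo3 with imiquimod on the ear was at -0.002 with RLE or DESeq2, -0.05 with upper-quartile scaling, -0.009 without the filter, -0.019 with the block, -0.057 without both libraries and -0.068 to 0.055 with 1 left out. Bcl11a there was at -0.025 with upper-quartile scaling and -0.052 to 0.099 with 1 left out, and Lmo2 at -0.25 to 0.036. Lmo2 in IL-23-ear against imiquimod-ear was at 0.008 with RLE or DESeq2, 0.029 with upper-quartile scaling or limma-voom, 0.001 with haemoglobin and immunoglobulin genes out, 0.012 without the filter, 0.024 with the block, 0.011 without both libraries and -0.136 to 0.164 with 1 left out. Ldb1 with imiquimod on the back was at -0.172 with upper-quartile scaling, -0.041 without both libraries and -0.019 to 0.113 with 1 left out, and in IL-23-ear against imiquimod-dorsal at -0.052 to 0.068. Gata1 and Zfpm1 with IL-23, at -0.48 and -0.16 with all libraries, were at 0.035 and 0.047 without both libraries. They were at -0.898 to 0.035 and -0.309 to 0.047 with 1 left out, the highest values being those without control 5. The ratio tests did not pass under any alternative, and with these group sizes they could not. The cause of these shifts was not tested. With 3 or 4 mice a group the SE of Klf1 and Tal1 against control was 0.56 to 0.73 in the ear models, which limits what these can show.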
